A study of Mus musculus with 10 samples.

Results

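Imprinted genes are transcribed mainly from 1 parental allele, the maternal or the paternal, and they lie in clusters. The 42 genes described here, coding and noncoding, belong to 19 such clusters of the mouse genome and were taken by name, with all of their GRCm38 transcription start sites (TSS), out of 53843 annotated genes on the autosomes and the X chromosome. H3K4me3, the histone mark of promoters that are active or poised for activity, was profiled by CUT&Tag in naive extra-embryonic endoderm (nEnd), a culture of primitive endoderm (PrE) derived from embryonic stem cells. Untreated nEnd of 1 OCT4-mCherry protein reporter line was grown in RACL medium on feeder fibroblasts and sorted on the reporter and on PDGFRA at the surface. Oct4+ nEnd carried the reporter alone (4 libraries), DP nEnd carried both (3 libraries) and Pdgfra+ nEnd carried PDGFRA alone (3 libraries).

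In many clusters, though not in all, an imprinting control region is methylated on 1 parental allele in the germline, and the unmethylated allele can carry H3K4me3. The methylated copy is protected in the early embryo by ZFP57 and its partner TRIM28, and in several clusters a long noncoding RNA that starts at the control region silences its neighbours in cis. Imprinted genes are known for roles in growth, placenta and endocrine tissues, and extra-embryonic lineages keep some imprints that the embryo proper does not.

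The deposited values are peaks called per library, each with a total signal, which is coverage summed along the peak, and a highest coverage, neither scaled between libraries. Promoter windows reached from 1000 bp before to 100 bp after each TSS, and 1 bp of overlap between a peak and any window of a gene made it a marked gene. The strength of a peak was expressed as its percentile, the percent of peaks of the same library with a total signal at or below its own. Libraries differ in their number of peaks, so the same percentile is not the same rank from the top in every library. An overlap or a gap of percentiles between populations therefore holds for percentiles only. The peaks do not separate the parental alleles, so a peak may stand for one allele or both. In a sorted population, fewer cells with the mark and less of it per cell cannot be told apart.

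Libraries held 3477 to 10545 peaks, with the fewest in Oct4+ nEnd replicates 3 (3477) and 4 (4887), and the median highest coverage of their peaks ran from 22 to 59 in Oct4+ nEnd and from 67 to 144 in the other populations. The sorted populations were checked by promoter peaks of marker lists. Epiblast markers with a peak numbered 8 of 8 throughout Oct4+ nEnd, 5 to 7 in DP nEnd and 0 to 3 in Pdgfra+ nEnd. Of 10 PrE markers, 9 or 10 were marked in each DP nEnd library, 9 in each Pdgfra+ nEnd library, and 6, 3, 1 and 0 in Oct4+ nEnd replicates 1 to 4, with Foxa2, Sox7 and Dab2 unmarked in all 4. Of 15 fibroblast markers 0 to 2 were marked in any library, and Col1a1, Col1a2, Col3a1, Thy1, Postn and Dcn were unmarked in all 10. Trophectoderm markers were marked at 1 to 2 of 6 genes in Oct4+ nEnd, 3 to 4 in DP nEnd and 2 to 4 in Pdgfra+ nEnd, and Elf5 was unmarked throughout.

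Some of the promoters at which the populations differed are shown first, as RefSeq windows of 300 bases (250 before and 50 after a start, GRCm38.p6), with CpG dinucleotides in capitals. Peg10 and Sgce also differed but had no RefSeq window, and Slc38a4, marked in Oct4+ nEnd libraries alone, is not printed. CpG is the base pair step that carries DNA methylation, and its density ran from the CpG-poor Airn window to the CpG-dense Gnas window. The Igf2 window lies at chr7:142658755-142659054 (minus strand), the Airn window at chr17:12741061-12741360 (plus strand), the Snrpn window at chr7:60005150-60005449 (minus strand), the Gnas window at chr2:174329756-174330055 (plus strand) and the Cd81 window at chr7:143052500-143052799 (plus strand). Igf2 and Airn had a peak in the PDGFRA-positive populations only, Snrpn and Cd81 ranked higher in Oct4+ nEnd, and the Gnas window ranked lower there.
Igf2: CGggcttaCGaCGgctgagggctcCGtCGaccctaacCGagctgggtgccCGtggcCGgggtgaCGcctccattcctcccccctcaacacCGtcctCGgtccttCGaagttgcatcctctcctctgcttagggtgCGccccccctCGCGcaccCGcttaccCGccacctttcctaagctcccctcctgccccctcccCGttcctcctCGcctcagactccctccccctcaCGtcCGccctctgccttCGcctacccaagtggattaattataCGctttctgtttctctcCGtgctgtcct
Airn: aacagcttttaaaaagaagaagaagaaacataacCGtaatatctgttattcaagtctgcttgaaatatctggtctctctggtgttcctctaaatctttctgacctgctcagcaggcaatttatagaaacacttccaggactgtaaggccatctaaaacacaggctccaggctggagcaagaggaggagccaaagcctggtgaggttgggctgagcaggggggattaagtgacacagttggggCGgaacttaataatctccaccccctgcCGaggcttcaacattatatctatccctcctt
Snrpn: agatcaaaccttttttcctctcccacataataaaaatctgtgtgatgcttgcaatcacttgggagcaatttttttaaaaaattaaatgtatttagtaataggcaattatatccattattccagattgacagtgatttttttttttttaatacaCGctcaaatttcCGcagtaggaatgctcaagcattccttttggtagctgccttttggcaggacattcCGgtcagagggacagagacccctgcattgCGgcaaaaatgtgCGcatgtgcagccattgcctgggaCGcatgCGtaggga
Gnas: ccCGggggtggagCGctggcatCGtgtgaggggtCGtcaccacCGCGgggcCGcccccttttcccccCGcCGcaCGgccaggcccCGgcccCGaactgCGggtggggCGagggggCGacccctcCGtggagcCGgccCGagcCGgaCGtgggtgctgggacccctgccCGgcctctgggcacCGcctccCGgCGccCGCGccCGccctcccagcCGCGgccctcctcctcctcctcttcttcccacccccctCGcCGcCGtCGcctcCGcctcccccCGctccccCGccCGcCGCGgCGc
Cd81: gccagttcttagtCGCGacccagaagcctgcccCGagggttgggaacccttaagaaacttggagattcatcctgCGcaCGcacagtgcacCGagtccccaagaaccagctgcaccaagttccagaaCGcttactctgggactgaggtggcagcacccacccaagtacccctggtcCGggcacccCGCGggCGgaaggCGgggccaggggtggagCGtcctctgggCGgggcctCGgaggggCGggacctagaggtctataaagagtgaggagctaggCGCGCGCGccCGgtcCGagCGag
These windows hold 24, 3, 7, 40 and 23 CpG in the order printed, and the ratio of observed to expected CpG was 0.90, 0.19, 0.57, 0.84 and 0.71. The letters TGCCGC, the core of the motif bound by ZFP57, were searched on both strands and were found once in the Snrpn window and in none of the other windows printed.

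Of the 42 imprinted genes, 10 were marked in all 10 libraries, 18 in none and 14 in some. Over all 53843 annotated genes 8.33% were marked in all 10 libraries and 72.5% in none. Imprinted genes marked numbered 19, 19, 11 and 14 in Oct4+ nEnd replicates 1 to 4 (mean 15.8 ± 3.95, SD, n = 4), 20, 22 and 20 in DP nEnd (20.7 ± 1.15, SD, n = 3) and 23, 19 and 20 in Pdgfra+ nEnd (20.7 ± 2.08, SD, n = 3). The lowest counts stand in the libraries with the fewest peaks. With the strongest 3477 peaks of each library alone, the counts were 11, 12, 11 and 13 in Oct4+ nEnd, 11, 13 and 15 in DP nEnd, and 14, 15 and 16 in Pdgfra+ nEnd. By genes Oct4+ nEnd overlapped DP nEnd and stayed below Pdgfra+ nEnd. These counts take genes read from 1 peak separately, among them Peg3 and Usp29, marked in 0 Oct4+ nEnd and 3 Pdgfra+ nEnd libraries at this setting. Counted by peaks, Oct4+ nEnd no longer stayed below every Pdgfra+ nEnd library. Over all annotated genes the share marked averaged 16.3%, 21.2% and 20.7% in Oct4+, DP and Pdgfra+ nEnd with all peaks, also lowest in Oct4+ nEnd. It was, with the strongest 3477 peaks, 9.55% to 10.4% in Oct4+ nEnd, 10.2% to 10.5% in DP nEnd and 9.54% to 10.4% in Pdgfra+ nEnd libraries. By the consensus peaks, whose 7860 intervals in Oct4+ nEnd were rebuilt exactly from 3 of the 4 libraries (not replicate 3), 19, 20 and 20 imprinted genes were marked in Oct4+, DP and Pdgfra+ nEnd, beside 20.3%, 21.5% and 20.5% of all annotated genes. Of 22 imprinted genes in any list 5 were not shared by all 3 (22.7%), near the 25.7% of all genes in any list. These 5 were Slc38a4 in the Oct4+ nEnd list only, Snrpn in those of Oct4+ nEnd and DP nEnd, Igf2 and Airn in those of DP nEnd and Pdgfra+ nEnd, and Igf2r in that of Pdgfra+ nEnd.

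**Figure D1:**
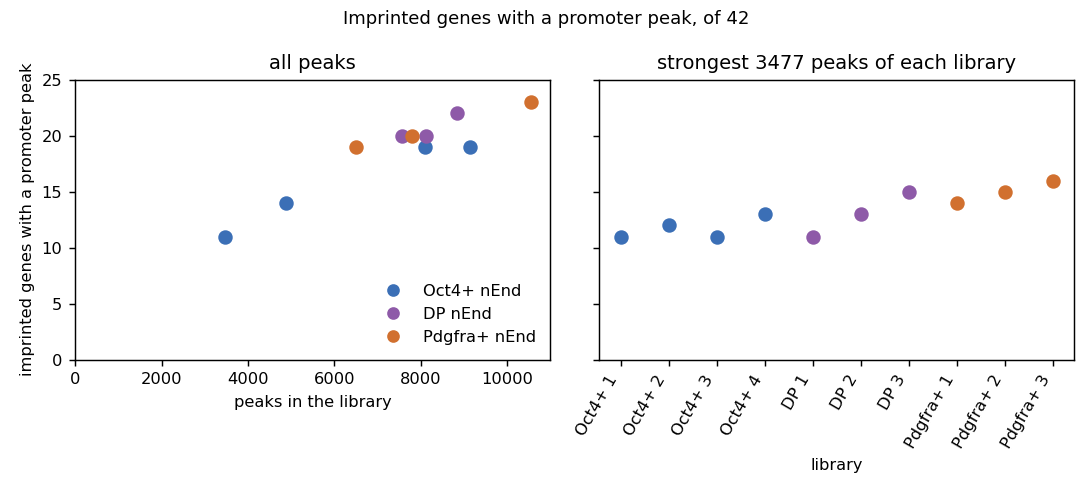
Imprinted genes with a promoter peak, of 42, on the y axis, by the number of peaks in the library (left) and by library when the strongest 3477 peaks of each are kept (right). Each point is 1 library, and Oct4+ nEnd replicates 3 and 4, with the fewest peaks, have the lowest counts on the left (11 and 14).

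**Figure D2:**
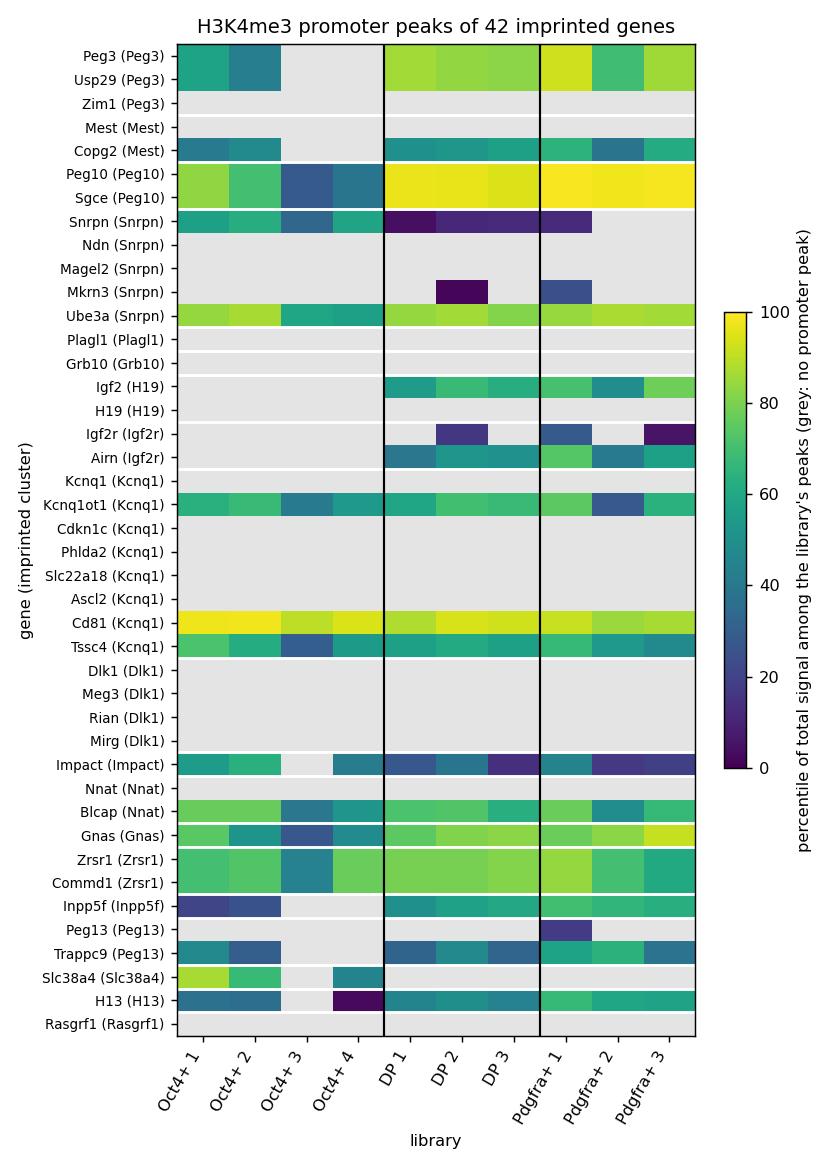
Percentile by total signal of the strongest promoter peak of each imprinted gene (rows, with its cluster) in each library (columns, black lines between populations), with grey for no promoter peak. The Dlk1 cluster is grey throughout, Igf2 and Airn are coloured in DP nEnd and Pdgfra+ nEnd alone, and Slc38a4 in Oct4+ nEnd replicates 1, 2 and 4 alone.

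A presence switch is a gene marked in every library of one population and in none of another. Genes marked in the pair are those with a promoter peak in at least 1 library of the populations compared, and shares of switches are of these. Igf2 and Airn were marked in all 3 DP nEnd and all 3 Pdgfra+ nEnd libraries and in no Oct4+ nEnd library, and they were the imprinted genes that switched. Igf2 encodes insulin-like growth factor 2, a fetal growth factor expressed from the paternal allele. Its peak stood at percentiles 54.8, 67.5 and 62.4 in DP nEnd replicates 1 to 3 and at 70.7, 49.1 and 77.9 in Pdgfra+ nEnd replicates 1 to 3. This is a mid-range strength in both populations, and the values of the 2 overlap. The peak was broad, 7514, 8570 and 7316 bp in DP nEnd and 6553, 4655 and 6171 bp in Pdgfra+ nEnd, and of the 7 separate starts of Igf2 it covered starts 3, 4 and 5 in all 6 libraries, start 2 in the DP nEnd libraries and Pdgfra+ nEnd replicate 1, and start 6 in all but DP nEnd replicate 3 and Pdgfra+ nEnd replicate 2. It also covered a start of Igf2os, the antisense transcript. Over the libraries it spanned chr7:142654371-142663547, within the gene body on the minus strand, and the window printed above lies under it. H19, the maternally expressed noncoding RNA that shares enhancers with Igf2, was unmarked in all 10 libraries, with the nearest peak 40810 bp away at the least.

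Airn, the paternally expressed noncoding RNA that runs antisense through Igf2r and silences it, had its peak at percentiles 39.5, 52.5 and 50.8 in DP nEnd and 73.8, 41.2 and 56.7 in Pdgfra+ nEnd, at chr17:12739346-12745507 over its first start. The peaks were 4211, 5210 and 4186 bp wide in DP nEnd and 5985, 2818 and 5153 bp in Pdgfra+ nEnd. Igf2r, the maternally expressed receptor that clears IGF2, was marked in DP nEnd replicate 2 (percentile 16.0) and Pdgfra+ nEnd replicates 1 and 3 (28.3 and 5.4), and in no Oct4+ nEnd library. Without Pdgfra+ nEnd replicate 2 it was a presence switch to Pdgfra+ nEnd against Oct4+ nEnd, as were 5.21% of genes marked in the pair. Where Igf2r was marked, its peak ranked below that of Airn in the same library.

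Of genes marked in at least 1 library of Oct4+ nEnd or DP nEnd, 3.82% of 13523 switched to every DP nEnd library, against 2 of 23 imprinted genes, and 0.532% switched to every Oct4+ nEnd library, against 0 imprinted genes. For Oct4+ nEnd and Pdgfra+ nEnd, 2.54% of 14747 genes switched to Pdgfra+ nEnd (2 of 24 imprinted genes) and 0.915% to Oct4+ nEnd (0). Without Oct4+ nEnd replicate 1 the shares that switched to DP nEnd and to Pdgfra+ nEnd rose to 7.2% and 4.74%, while the imprinted genes that switched stayed Igf2 and Airn. Between DP nEnd and Pdgfra+ nEnd, 0.376% of 14091 genes were marked in every DP nEnd library alone and 0.0071% in every Pdgfra+ nEnd library alone, with 0 imprinted genes in either direction. By a two-sided Fisher's exact test p was 0.0286 for Igf2 and for Airn in both comparisons with Oct4+ nEnd, the smallest that 4 against 3 libraries allow, and the same p is reached by every gene that switches. After Benjamini-Hochberg adjustment 0 genes passed in any pair, with 588, 509 and 0 genes at an unadjusted p under 0.05 for Oct4+ and DP nEnd, Oct4+ and Pdgfra+ nEnd, and DP and Pdgfra+ nEnd. For the 3 against 3 libraries of the last pair Fisher's exact test cannot go below p = 0.10. With the strongest 3477 peaks of each library, Igf2 was marked in 0 Oct4+ nEnd, 2 DP nEnd and 3 Pdgfra+ nEnd libraries and Airn in 0, 0 and 2, so the switch of Airn ended in both comparisons and that of Igf2 in the one with DP nEnd. Airn also lost its switch to Pdgfra+ nEnd when only peaks over 50% of the promoter window were used (2 libraries).

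Slc38a4, an amino acid transporter expressed from the paternal allele in placenta, ran the other way. It was marked in Oct4+ nEnd replicates 1, 2 and 4 at percentiles 86.9, 67.6 and 45.1, by peaks of 9512, 6952 and 8741 bp over its first and second starts (chr15:97046910-97056927). Replicate 3 and all DP nEnd and Pdgfra+ nEnd libraries had no peak there, and Fisher's exact test gave p = 0.143 in both comparisons. Without Oct4+ nEnd replicate 3, the library with the fewest peaks, Slc38a4 was a presence switch against both populations. So were 1.29% of genes marked in the pair for DP nEnd and 1.62% for Pdgfra+ nEnd. With the strongest 3477 peaks of each library it was again marked in 3 Oct4+ nEnd libraries and in none of the others.

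**Figure D3:**
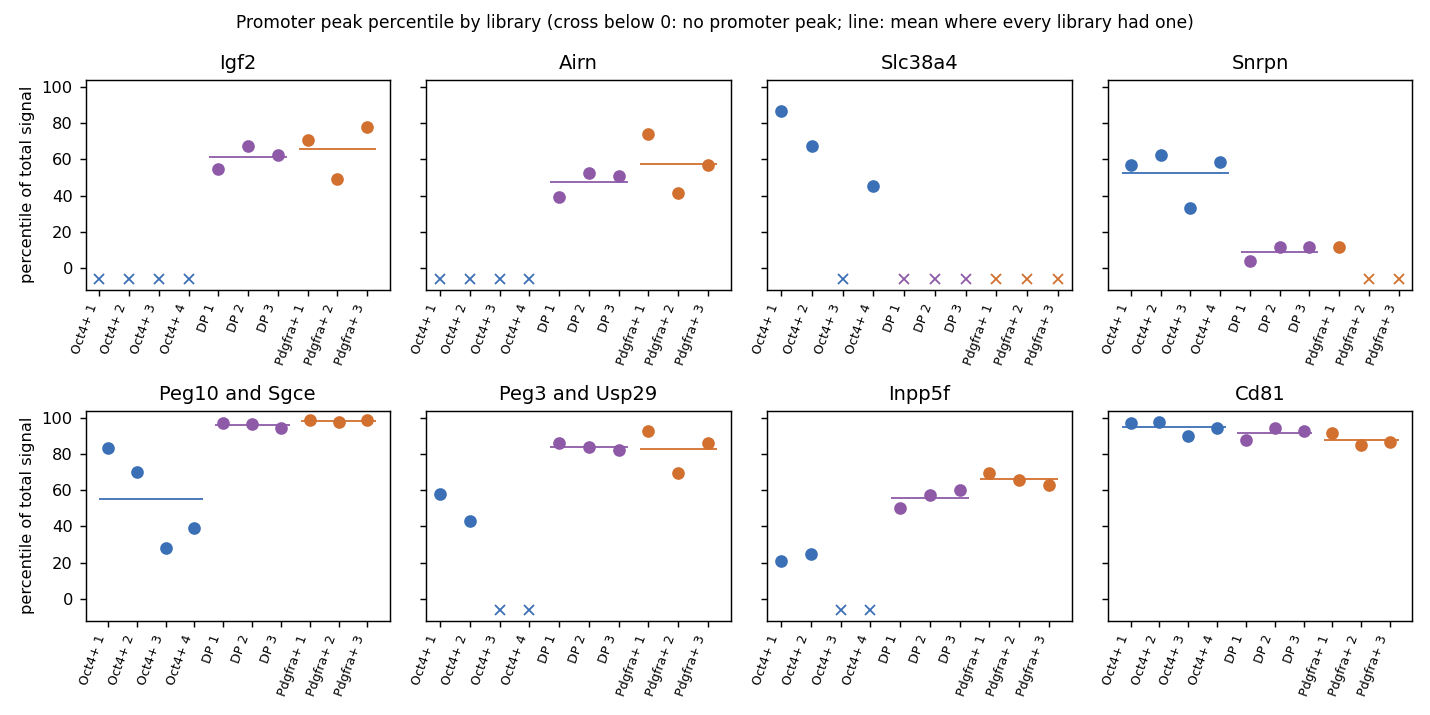
Percentile by total signal (y axis) of the promoter peak of 8 imprinted genes or gene pairs in each library (x axis), with crosses for no peak and a line at the mean of a population where every library had one. Igf2 and Airn show crosses in all 4 Oct4+ nEnd libraries, and Peg10 with Sgce lies at 94.6 to 98.9 in DP nEnd and Pdgfra+ nEnd.

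A further group of imprinted genes was marked throughout DP nEnd and Pdgfra+ nEnd but only in replicates 1 and 2 of Oct4+ nEnd, the libraries with the most peaks and the most PrE markers of that population. The part of either in this pattern was not tested. Peg3, a zinc finger protein expressed from the paternal allele, and its neighbour Usp29 share a bidirectional promoter and 1 peak (chr7:6726116-6732871). It stood at percentiles 58.0 and 42.8 in Oct4+ nEnd replicates 1 and 2, at 86.0, 83.7 and 82.5 in DP nEnd and at 92.8, 69.5 and 85.9 in Pdgfra+ nEnd. All 6 values of the PDGFRA-positive populations lay above both of Oct4+ nEnd. With the strongest 3477 peaks of each library the Peg3 and Usp29 peak was a presence switch, in 0 Oct4+ nEnd, 3 DP nEnd and 3 Pdgfra+ nEnd libraries. At that setting 7.27% and 7.41% of genes marked in the pair switched to DP nEnd and Pdgfra+ nEnd. Zim1, the remaining member of the cluster, was unmarked in all 10 libraries.

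Inpp5f, an inositol phosphatase with an imprinted transcript variant, had percentiles of 21.1 and 25.1 in Oct4+ nEnd replicates 1 and 2, 50.3, 57.4 and 60.2 in DP nEnd, and 69.7, 65.8 and 63.1 in Pdgfra+ nEnd. The 3 populations did not overlap in the libraries with a peak. The peak lay at start 1 of 7 separate starts (chr7, position 128611328), and the other starts, inside the gene, were unmarked in all 10 libraries. With equal numbers of peaks Inpp5f was a presence switch from Oct4+ nEnd to Pdgfra+ nEnd, as 7.41% of genes marked in the pair were. Copg2, a coatomer subunit next to Mest, had percentiles of 41.4 and 47.7 in Oct4+ nEnd, 50.4, 52.9 and 56.9 in DP nEnd and 64.7, 38.4 and 61.5 in Pdgfra+ nEnd. Trappc9, a subunit of a vesicle tethering complex, had 47.0 and 30.4 in Oct4+ nEnd, 32.4, 47.2 and 32.7 in DP nEnd and 58.0, 64.1 and 37.9 in Pdgfra+ nEnd. For Copg2 and Trappc9 the values of Oct4+ nEnd overlapped those of another population. Peg13, the paternally expressed noncoding RNA inside Trappc9, was marked in Pdgfra+ nEnd replicate 1 alone, at percentile 17.4.

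H13 and Impact were missing from Oct4+ nEnd replicate 3 only. With peaks over 50% of the window H13 was marked in 2 Oct4+ nEnd, 1 DP nEnd and 0 Pdgfra+ nEnd libraries, and with equal numbers of peaks H13 was marked in 0, 0 and 2 and Impact in 2, 0 and 0. H13, the signal peptide peptidase, had percentiles of 37.2, 36.3 and 2.62 in Oct4+ nEnd replicates 1, 2 and 4, 45.3, 49.9 and 44.3 in DP nEnd, and 67.0, 59.1 and 57.8 in Pdgfra+ nEnd. These were ordered Oct4+, DP and Pdgfra+ nEnd from low to high without overlap, but the gene enters only the fit of DP nEnd against Pdgfra+ nEnd, where it did not pass. Impact, a regulator of translation expressed from the paternal allele, had 55.0, 63.6 and 42.2 in Oct4+ nEnd replicates 1, 2 and 4, 27.6, 39.0 and 13.5 in DP nEnd and 44.8, 16.5 and 19.1 in Pdgfra+ nEnd. Its peak lay at starts 2 and 3 of 5 separate starts, inside the gene, and start 1 was marked in Pdgfra+ nEnd replicate 1 alone (percentile 11.3). Oct4+ nEnd was the higher of the populations for Impact, although replicate 1 of Pdgfra+ nEnd fell within its range.

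The strength of peaks was compared over the genes marked in every library of a pair. Total signals were ranked among those genes within each library, the ranks were turned into normal scores (in SD of the distribution over genes) and the populations were compared with limma and Benjamini-Hochberg adjustment. Of the 42 imprinted genes, 11 could be tested for Oct4+ and DP nEnd, 10 for Oct4+ and Pdgfra+ nEnd and 19 for DP and Pdgfra+ nEnd. A signal rank higher in DP nEnd than in Oct4+ nEnd passed for 3 of 11 (19.7% of 4924 genes tested) and one higher in Oct4+ nEnd for 2 of 11 (19.3%). Against Pdgfra+ nEnd the counts were 3 of 10 higher in Pdgfra+ nEnd (20.3% of 4487 genes) and 1 of 10 higher in Oct4+ nEnd (19.1%). Genes that differ are common between these populations, and counts this near the background are no result about imprinted genes as a group. Peg10 with Sgce, and Zrsr1 with Commd1, were read from 1 peak each, and by peaks the counts were 2 lower and 2 higher of 9 in Oct4+ nEnd against DP nEnd, and 2 and 1 of 8 against Pdgfra+ nEnd. The median difference (Oct4+ nEnd minus the other) was -0.22 over the imprinted genes tested and -0.07 over all genes tested for DP nEnd, and -0.07 and -0.06 for Pdgfra+ nEnd. With ranks by highest coverage the medians over the imprinted genes were 0.01 for DP nEnd and 0.31 for Pdgfra+ nEnd. For Pdgfra+ nEnd the alternatives ran from -0.30 (without Pdgfra+ nEnd replicate 3) to that value, with -0.25 under the replicate block, -0.24 without Oct4+ nEnd replicate 4, 0.16 with equal numbers of peaks and 0.09 without Oct4+ nEnd replicate 1, so the sign of this median is not stable.

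Among imprinted genes read by their strongest peak, the largest difference was at the bidirectional promoter of Peg10 and Sgce (chr6:4745029-4752125), a pair of paternally expressed genes. Against DP nEnd it was close in size to that of Snrpn, and Gnas differed slightly more when start 5 was read by itself (-1.85). Peg10 is a retrotransposon-derived gene needed for the placenta, and Sgce encodes epsilon-sarcoglycan. Their common peak stood at percentiles 83.3, 70.3, 28.2 and 39.0 in Oct4+ nEnd replicates 1 to 4, 97.1, 96.6 and 94.6 in DP nEnd, and 98.9, 98.0 and 98.8 in Pdgfra+ nEnd. Every DP nEnd and Pdgfra+ nEnd library was above every Oct4+ nEnd library, and every Pdgfra+ nEnd library was above every DP nEnd library. Within Oct4+ nEnd the values were highest in replicates 1 and 2, the libraries with the most peaks and the most PrE markers of that population. The part of either was not tested. The signal rank fell by 1.83 ± 0.24 (SE) normal scores in Oct4+ nEnd against DP nEnd (limma, adjusted p = 0.000632) and fell by 2.38 ± 0.25 against Pdgfra+ nEnd (adjusted p = 0.000153). Between DP nEnd and Pdgfra+ nEnd the difference was -0.47 ± 0.13 (limma, adjusted p = 0.235). Since both genes were read from 1 peak, they count as 1 observation. The width of this peak, 3527 to 5253 bp in Oct4+ nEnd, 4607 to 6533 bp in DP nEnd and 3385 to 7097 bp in Pdgfra+ nEnd, overlapped between all populations.

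Snrpn, which encodes a spliceosome protein and is expressed from the paternal allele at the control region of the Prader-Willi and Angelman cluster, had the opposite direction. Percentiles were 56.8, 62.4, 33.0 and 58.4 in Oct4+ nEnd, 3.97, 11.4 and 11.8 in DP nEnd, and 11.9 in Pdgfra+ nEnd replicate 1, with no peak in Pdgfra+ nEnd replicates 2 and 3. Oct4+ nEnd was above every other library, and the peaks of DP nEnd were among the weakest of their libraries. The signal rank was 1.83 ± 0.29 (SE) normal scores higher in Oct4+ nEnd than in DP nEnd (limma, adjusted p = 0.00181). Presence against Pdgfra+ nEnd gave p = 0.143 (Fisher's exact test, 4 of 4 against 1 of 3 libraries). The peak, at chr7:60001952-60006462, was at the downstream of 2 separate starts, the one printed above, which it shares with Snurf. No library had a peak at the upstream start. Without Pdgfra+ nEnd replicate 1, the library with the most peaks, Snrpn had a peak throughout Oct4+ nEnd and DP nEnd and in no remaining Pdgfra+ nEnd library. This switch was made by 1.99% of genes marked in the pair for Oct4+ nEnd and 2.95% for DP nEnd.

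The rest of the Snrpn cluster differed from Snrpn itself. Ube3a, a ubiquitin ligase imprinted in neurons, was marked in all 10 libraries at percentiles 56.9 to 87.2. Mkrn3, a paternally expressed ring finger protein, was marked in DP nEnd replicate 2 (1.88) and Pdgfra+ nEnd replicate 1 (24.3) only. Ndn and Magel2, both paternally expressed, were unmarked in all 10 libraries.

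Cd81, a tetraspanin that is imprinted in the placenta, lies in the Kcnq1 cluster and had a strong peak in every library. Percentiles were 97.3, 97.7, 89.9 and 94.5 in Oct4+ nEnd, 87.9, 94.1 and 92.9 in DP nEnd and 91.5, 85.1 and 86.7 in Pdgfra+ nEnd. Percentiles of Oct4+ nEnd overlapped those of both other populations through replicate 3, the library with the fewest peaks. The signal rank was higher in Oct4+ nEnd by 0.53 ± 0.17 (SE) than in DP nEnd (limma, adjusted p = 0.0333) and by 0.80 ± 0.17 than in Pdgfra+ nEnd (adjusted p = 0.00552). Without any 1 library other than Oct4+ nEnd replicate 3, adjusted p of the first was 0.0510 to 0.142 (limma), with differences of 0.38 (without DP nEnd replicate 1) to 0.61. Its neighbours Tssc4 (percentiles 30.0 to 71.6) and Kcnq1ot1 (27.8 to 74.8), the paternally expressed noncoding RNA that silences the cluster, were also marked in all 10 libraries and did not pass in any pair. Kcnq1, Cdkn1c, Phlda2, Slc22a18 and Ascl2, which are expressed from the maternal allele, were unmarked in every library.

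**Figure D4:**
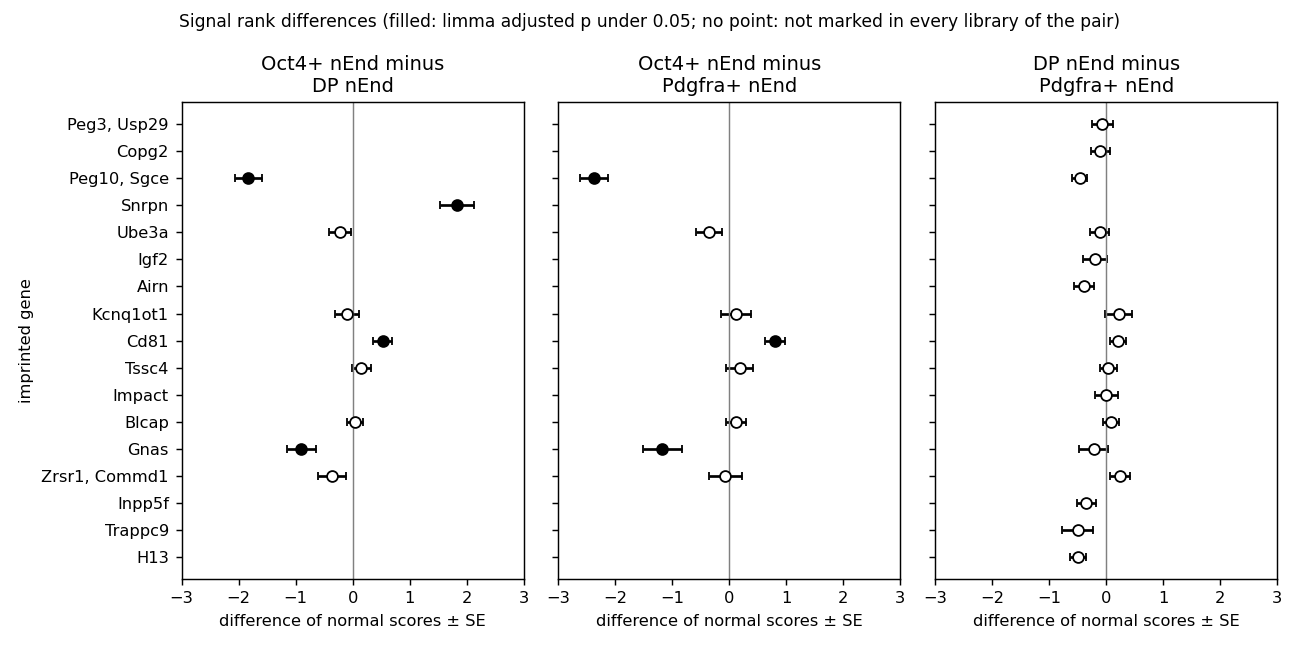
Difference of signal rank in normal scores (x axis, first population minus second, bars ± SE) of the imprinted genes marked in every library of a pair (y axis), with filled points for limma adjusted p under 0.05. Peg10 with Sgce and Gnas lie left of 0 and Cd81 right of 0 in both comparisons with Oct4+ nEnd, Snrpn lies right of 0 against DP nEnd, and no point is filled between DP nEnd and Pdgfra+ nEnd.

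Gnas encodes the stimulatory G protein alpha subunit and is a locus of several promoters, in the order Nesp, Gnasxl, exon 1A and Gnas along the plus strand. Read as 1 gene by its strongest promoter peak, it was at percentiles 74.3, 51.8, 27.2 and 48.3 in Oct4+ nEnd, 74.7, 81.2 and 82.4 in DP nEnd and 77.5, 82.6 and 91.3 in Pdgfra+ nEnd. The signal rank was lower in Oct4+ nEnd by a difference of -0.90 ± 0.26 (SE) against DP nEnd (limma, adjusted p = 0.0234) and -1.18 ± 0.34 against Pdgfra+ nEnd (adjusted p = 0.0222). Without Oct4+ nEnd replicate 3, DP nEnd replicate 2 or DP nEnd replicate 3, adjusted p (limma) in the first comparison was 0.0544, 0.0684 and 0.0869, and without Oct4+ nEnd replicate 3, Pdgfra+ nEnd replicate 2 or replicate 3 in the second it was 0.0617, 0.0608 and 0.0944. The strongest peak was at start 3 in Oct4+ nEnd and at start 5 in the other populations, so these values compare different promoters and each start was read by itself, a choice made after the peaks were seen.

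Start 1 of Gnas (chr2, position 174284320, the Nesp side) was marked in 3 Oct4+ nEnd libraries (replicates 1, 2 and 4) at percentiles 45.3, 19.9 and 18.4, but in none of the other populations. At start 3 (174297859, the Gnasxl side), where most peaks touched the promoter window without reaching the start itself (3 libraries reached it), percentiles were 74.3, 51.8, 27.2 and 48.3 in Oct4+ nEnd, 49.1, 54.3 and 43.5 in DP nEnd, and in Pdgfra+ nEnd 55.6 (replicate 1) and 43.2 (replicate 3), without a peak in replicate 2. The populations overlapped there, and the signal rank differed by 0.30 ± 0.24 (SE) between Oct4+ nEnd and DP nEnd (limma, adjusted p = 0.352). Taken over the libraries, the peaks at starts 1 and 3 also reached promoter windows of Nespas, another gene, so they cannot be assigned to Gnas alone. Start 5 (174330006 to 174330287, the Gnas side, the window printed above) was marked in all 10 libraries, at 44.1, 50.6, 7.68 and 16.0 in Oct4+ nEnd, 74.7, 81.2 and 82.4 in DP nEnd and 77.5, 82.6 and 91.3 in Pdgfra+ nEnd. All Oct4+ nEnd libraries were below all others there. Its signal rank differed by -1.85 ± 0.19 (SE) from DP nEnd (limma, adjusted p = 0.000174) and by -2.13 ± 0.29 from Pdgfra+ nEnd (adjusted p = 0.000611). Within Oct4+ nEnd, replicates 1 and 2, with the most peaks, were again the highest at this start. Start 4 (174327570 to 174328023, the exon 1A side) lay under the same peak as start 5 in all 3 DP nEnd libraries, in Pdgfra+ nEnd replicate 1 and in Oct4+ nEnd replicate 4, and was unmarked in the other libraries.

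**Figure D5:**
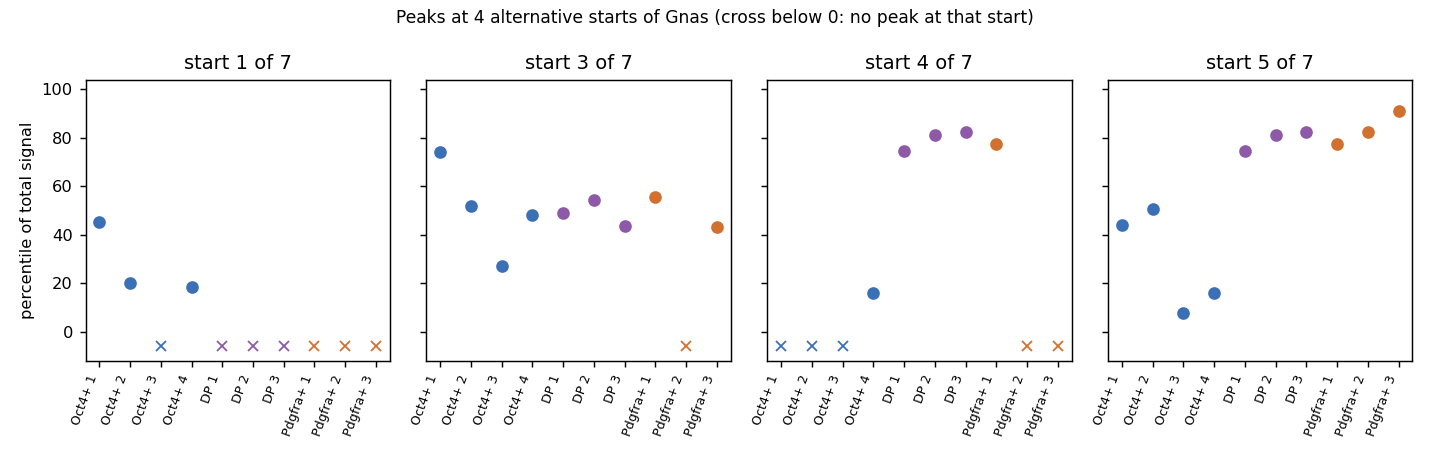
Percentile by total signal (y axis) of the peak at starts 1, 3, 4 and 5 of 7 separate starts of Gnas in each library (x axis), with crosses for no peak at that start. Start 1 is marked in 3 Oct4+ nEnd libraries alone, and at start 5 the Oct4+ nEnd libraries (7.68 to 50.6) lie below all others (74.7 to 91.3).

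The other imprinted genes marked in every library did not pass in signal rank. Blcap, an apoptosis-linked gene that contains Nnat in an intron, was at percentiles 39.6 to 76.7 in Oct4+ nEnd, 62.7 to 72.9 in DP nEnd and 49.0 to 77.0 in Pdgfra+ nEnd. Zrsr1, a splicing factor retrogene expressed from the paternal allele, lies in an intron of Commd1 and shares with one of its starts a peak at percentiles 44.3 to 84.0. This peak was 2067 to 4729 bp wide in Oct4+ nEnd, 4752 to 8282 bp in DP nEnd and 1611 to 6189 bp in Pdgfra+ nEnd, so that DP nEnd lay above Oct4+ nEnd without overlap but the difference did not pass over all genes. The first start of Commd1, upstream of this peak, had its own at 45.4, 40.8 and 0.859 in Oct4+ nEnd replicates 1, 2 and 4, 39.7, 38.7 and 21.8 in DP nEnd and 47.3, 6.44 and 24.4 in Pdgfra+ nEnd. These values overlapped between all populations.

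Peak width was compared as log2 of the width less the median of the library. Of the imprinted genes tested, 0 of 11, 0 of 10 and 0 of 19 passed limma for Oct4+ and DP nEnd, Oct4+ and Pdgfra+ nEnd, and DP and Pdgfra+ nEnd, against 0.386%, 8.29% and 0.299% of all genes tested. With the replicate block 217 genes passed for Oct4+ and Pdgfra+ nEnd, against 372 without it, and again 0 imprinted genes. At an unadjusted p under 0.05 the imprinted genes numbered 3, 2 and 2 (in 2, 1 and 1 peaks), against 15.2%, 24.4% and 8.61% of all genes tested. The zero counts rest on single libraries for 1 peak: that of Zrsr1 and Commd1 passed as wider in DP nEnd without Oct4+ nEnd replicate 4 (-1.30 ± 0.19 against DP nEnd, limma, adjusted p = 0.0269) and without Pdgfra+ nEnd replicate 1 (1.25 ± 0.22 over Pdgfra+ nEnd, adjusted p = 0.0203).

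Between DP nEnd and Pdgfra+ nEnd 0 of 19 imprinted genes passed in signal rank, where 0.0345% of 8691 genes were higher in DP nEnd and 0.0115% in Pdgfra+ nEnd, and 3 of the 19 (Peg10 with Sgce, and H13, thus 2 peaks) had an unadjusted p under 0.05, against 13% of all genes tested. Differences (DP nEnd minus Pdgfra+ nEnd) ran from -0.50 to 0.25 normal scores, with a median of -0.11 over the imprinted genes tested and -0.02 over all genes. Since Oct4+ nEnd is common to the other comparisons, the directions of Peg10, Gnas and Cd81 in those are not independent of each other.

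The 18 imprinted genes without a promoter peak in any library were Zim1, Mest, Ndn, Magel2, Plagl1, Grb10, H19, Kcnq1, Cdkn1c, Phlda2, Slc22a18, Ascl2, Dlk1, Meg3, Rian, Mirg, Nnat and Rasgrf1. The Dlk1 cluster, with the growth regulator Dlk1 and the maternally expressed noncoding RNAs Meg3, Rian and Mirg, held no peak between chr12:109442823-109759460 in any library, and the peak nearest to Meg3 was 396617 bp away. No peak was found within 10000 bp of Plagl1, a paternally expressed zinc finger gene, or of Grb10, an adaptor that limits growth signalling. Nnat was the single unmarked member with a peak within 10000 bp, that of Blcap at 1865 bp. A gene without a called peak can carry a mark below the level of detection, and depth of the libraries is unknown.

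The sequences of windows without a peak were compared with those of windows with one. RefSeq windows were found for 34 of the 42 genes (50 windows). Those missing were Peg10, Peg13, Sgce, H19, Cdkn1c, Impact, Kcnq1 and Trappc9. The 25 windows with a peak in at least 1 library held a median of 17 CpG (3 to 40) and the 25 without a peak a median of 10 (0 to 45), and 6 of the latter belong to the marked genes Snrpn, Igf2 and Slc38a4. Over all 32851 windows the medians were 22 with and 4 without a peak. Of the unmarked windows of imprinted genes 9 held more than 15 CpG, and the highest was that of Grb10 with 45, followed by Plagl1, Phlda2 and Rasgrf1 with 26 each. TGCCGC stood on either strand in 28.0% of the unmarked and 16.0% of the marked windows of imprinted genes (7 and 4 windows), against 5.56% and 21.3% of all unmarked and marked windows and 11.6% of all windows. The unmarked windows with these letters belong to Zim1, Mest, Plagl1, Grb10, Meg3 and Nnat, and the marked ones to Copg2, Snrpn, Igf2 and Commd1. Windows of 1 gene overlap in part, and the letters alone show no binding.

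A second list of 33 imprinted genes at other loci or at the edges of the same clusters gave 4 genes marked in all 10 libraries and 20 in none, beside 8.33% and 72.5% of all annotated genes, and 0 presence switches with all peaks. With the strongest 3477 peaks of each library, Ppp1r9a switched to Oct4+ nEnd, and Gab1 away from it, against both populations, at a setting where 5.35% to 7.41% of all genes marked in a pair switched in each of these directions. Calls among the 4 genes tested stand beside 19.1% to 20.3% of all genes tested in each direction. Jade1, a subunit of a histone acetyltransferase complex, ranked lower in Oct4+ nEnd than in DP nEnd (-0.81 ± 0.21, limma, adjusted p = 0.0143), as did Nap1l4, a nucleosome assembly protein (-0.73 ± 0.13, adjusted p = 0.00342). Against Pdgfra+ nEnd, Nap1l4 was lower (-0.97 ± 0.22, limma, adjusted p = 0.00700) and Ppp1r9a, a regulatory subunit of a phosphatase, higher (1.40 ± 0.40, adjusted p = 0.0204). Zdbf2, a zinc finger gene expressed from the paternal allele, had a peak at percentile 28.9 in Oct4+ nEnd replicate 1, 25.6 in replicate 2 and 0.171 in Pdgfra+ nEnd replicate 1. Sfmbt2, a Polycomb-like gene expressed from the paternal allele, had percentiles of 1.13 and 1.10 in Oct4+ nEnd replicates 1 and 2, 47.6, 59.0 and 36.2 in DP nEnd, and 71.3 in replicate 1 and 54.3 in replicate 3 of Pdgfra+ nEnd, with no peak in the remaining libraries. These 2 were chosen after their values were seen.

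Of 27 factors that set, read or erase imprints, 16 were marked in all 10 libraries (8.33% of all annotated genes) and 4 in none (72.5%), and 0 were presence switches with all peaks. Zfp57 and Zfp42, with the strongest 3477 peaks of each library, switched to Oct4+ nEnd against both populations, Dnmt3b and Tet2 against Pdgfra+ nEnd, and Dnmt3b to DP nEnd against Pdgfra+ nEnd. Of genes marked in the pair, 5.35%, 6.95% and 1.51% made these switches at that setting, for DP nEnd, Pdgfra+ nEnd and the last pair. Without Pdgfra+ nEnd replicate 1, Zfp42 switched to Oct4+ nEnd against Pdgfra+ nEnd (1.99% of genes marked in the pair). Between Oct4+ nEnd and DP nEnd 7 of 18 tested ranked higher in Oct4+ nEnd and 2 lower, beside 19.3% and 19.7% of all genes tested. Against Pdgfra+ nEnd 5 of 16 ranked higher in Oct4+ nEnd and 2 lower, beside 19.1% and 20.3%. Zfp57, the zinc finger protein that binds methylated control regions, stood at percentiles 82.8, 81.9, 65.0 and 70.7 in Oct4+ nEnd, 17.9, 27.9 and 4.46 in DP nEnd, and 28.0 and 2.73 in Pdgfra+ nEnd replicates 1 and 3, with no peak in replicate 2. Every Oct4+ nEnd library was above every other library, while DP nEnd and Pdgfra+ nEnd overlapped, and the difference from DP nEnd was 2.42 ± 0.18 (limma, adjusted p = 3.82e-05). Trim28, its partner, was near the top in every library (percentiles 95.3 to 99.8) and was higher in Oct4+ nEnd by 0.86 ± 0.22 than in DP nEnd (adjusted p = 0.0161, limma) and by 0.92 ± 0.23 than in Pdgfra+ nEnd (adjusted p = 0.0123).

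Methylcytosine dioxygenases, which begin the removal of DNA methylation, moved in both directions. Tet1 was higher in Oct4+ nEnd than in DP nEnd by 1.90 ± 0.14 and than in Pdgfra+ nEnd by 2.31 ± 0.19 (limma, adjusted p = 4.18e-05 and 4.63e-05), and Tet2 was higher than in DP nEnd by 1.59 ± 0.24 (adjusted p = 0.00120). Tet3 was lower, by a difference of -1.97 ± 0.18 and -2.52 ± 0.24 (adjusted p = 0.000112 and 9.62e-05). The DNA methyltransferase Dnmt1 was higher in Oct4+ nEnd in both comparisons (0.74 and 0.72), as was the Polycomb subunit Eed (0.60 and 0.63). Smchd1, a chromatin protein that silences imprinted clusters, was lower in both (-0.93 and -1.21). Uhrf1, which brings DNMT1 to replicated DNA, was higher than in DP nEnd (0.69), and Ehmt2, a histone H3K9 methyltransferase, higher than in Pdgfra+ nEnd (0.95). Of 16 factors tested for width against Pdgfra+ nEnd, 4 passed, beside 8.29% of all genes tested: Tet1, Eed and Trim28 were wider and Tet3 narrower in Oct4+ nEnd, with differences of 0.75 for Eed, 1.07 for Trim28 and -0.80 for Tet3 on the log2 scale. Against Pdgfra+ nEnd, calls of 2 widths and 1 rank were lost with the replicate block (limma), with adjusted p of 0.0513 for the width of Eed, 0.114 for that of Trim28 and 0.0891 for the signal rank of Dnmt1. Against DP nEnd the block ended the signal rank calls of Dnmt1 and Uhrf1 (limma adjusted p = 0.0632 and 0.0551). Between DP nEnd and Pdgfra+ nEnd 0 of 17 factors passed in either measure. Of all 8691 genes tested, 0.0345% were higher in DP nEnd and 0.0115% in Pdgfra+ nEnd in signal rank, and 0.299% passed in width.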

How the data were processed

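H3K4me3 CUT&Tag was done on sorted Oct4+ nEnd (4 libraries), DP nEnd (3) and Pdgfra+ nEnd (3). For each library the authors deposited SEACR peaks, called against IgG with the stringent setting on mm10, with the total signal and the highest coverage of each peak as an unscaled signal. The processing notes name bcl2fastq 2.19.1, Bowtie2, SAMtools 1.12, deepTools, SEACR and bedtools 2.26.0. The deposited consensus score is the same for every peak, so that only positions were used. Reads and other marks were not analysed here, so the depth is unknown and no counting interval was computed.

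Peaks were joined to TSS of GENCODE release M21, with starts within 500 bp of each other read as 1. None of 20 chromosomes had a peak past its GRCm38 length, and 97.8% of consensus peaks contained a TSS (25.7% when shifted by 100000 bp). The replicates are separate sorted samples, and p-values measure only the spread between them. Imprinted genes, lists and tests were chosen with earlier results of these data known. Each imprinted gene was described in every library where it switched, passed limma or was marked in some libraries of a population. A test passed at an adjusted p under 0.05. limma was tested on simulated data with 200 genes shifted by 1 normal score and recovered 56.5% of them for Oct4+ and DP nEnd (4924 genes), 48.5% for Oct4+ and Pdgfra+ nEnd (4487 genes) and 69.5% for DP and Pdgfra+ nEnd (8691 genes). In the same order, 6.61%, 4.90% and 6.71% of its calls were false. The noise was drawn independently for each library, without pairing.

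Libraries of the same number were checked for pairing by the correlation of their deviations in signal rank. It was 0.235, 0.166 and 0.140 for Oct4+ and Pdgfra+ nEnd, against -0.348 to 0.132 for their libraries of different number. In each of the other comparisons it fell below 0.1 for 1 pair. These correlations alone speak for pairing of Oct4+ and Pdgfra+ nEnd, and Oct4+ nEnd replicate 4 has no partner. Fits without a block leave such pairing out, so the replicate block is given as an alternative. All values are from fits without a block unless a replicate block is named. Alternatives were promoters of 2500 bp to either side, peaks over 50% of the window, equal numbers of peaks, protein-coding genes only, ranks by highest coverage, log2 total signal less the library median, quantile-normalized width, a replicate block and leaving out each library. Software was limma 3.58.1 in R 4.3.3, and scipy 1.17.1, pandas 2.3.3, matplotlib 3.10.9 and numpy 2.4.6 in Python 3.11.15.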

Additional observations from a re-analysis of the deposited data

Results flagged for a closer look

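In Oct4+ nEnd the Ube3a promoter peak was 3736 bp wide in replicate 1, against 3043 to 3089 bp in replicates 2 to 4, which places replicate 1 far from the others by Dixon's ratio (0.934). Of 23 groups of Oct4+ nEnd values tested this way, 1 was past the value, and about 1 in 20 groups passes by chance. The percentile of the same peak was not set apart.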

How the results depend on the processing

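Of 97 values of imprinted genes recomputed under an alternative, with Peg10 and Sgce taken as 1, 83 stayed on the same side of the threshold and 13 no longer passed, and 1 reversed: at start 3 alone Gnas was 0.30 higher in Oct4+ nEnd than in DP nEnd. The 13 were the values of Cd81 and Gnas without 1 library (adjusted p above) and Cd81 against DP nEnd with a replicate block (0.54, limma adjusted p = 0.0725). Peg10 with Sgce passed under every alternative (-2.17 to -1.16 against DP nEnd, -2.88 to -1.50 against Pdgfra+ nEnd), and Snrpn passed under all 12 that could test it (1.11 to 2.08). Snrpn was not marked in every library with equal numbers of peaks or with peaks over 50% of the window. The replicate block changed no other call of an imprinted gene, and against DP nEnd it also ended the signal rank calls of Dnmt1 and Uhrf1 (limma adjusted p = 0.0632 and 0.0551). The cause of these changes was not tested. Depth is unknown, so its part in the calls was not tested.

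Imprinted genes marked averaged 11.8, 13 and 15 in Oct4+, DP and Pdgfra+ nEnd with equal numbers of peaks, and 19.3 in DP nEnd with peaks over 50% of the window. With equal numbers of peaks, presence switches over all genes for Oct4+ and DP, Oct4+ and Pdgfra+, and DP and Pdgfra+ nEnd numbered 960, 1155 and 153 (588, 509 and 54 with all peaks), genes past the signal rank test for Oct4+ and Pdgfra+ nEnd 1083 (1768), and genes past the width test 5, 180 and 15 (19, 372 and 26). Ranks by highest coverage gave 670 and 474 genes for Oct4+ and DP nEnd and Oct4+ and Pdgfra+ nEnd (1918 and 1768), with 5 and 4 imprinted genes as before, and turned the split for DP and Pdgfra+ nEnd from 3 higher in DP nEnd and 1 lower to 1 and 3. With a replicate block the width test gave 10 and 217 genes for the comparisons with Oct4+ nEnd, and signal rank gave 1 for DP and Pdgfra+ nEnd (4), against 7 on the log2 scale and 2 with protein-coding genes, which also gave 25 presence switches there.

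Leaving out 1 library each gave 590 to 1008, 511 to 903 and 62 to 367 presence switches, in the same order of comparisons, 1238 to 2271, 1307 to 1872 and 0 to 56 genes in signal rank, and 12 to 33, 127 to 377 and 10 to 90 in width. Presence switches moved by over 1.5 times without Oct4+ nEnd replicate 1 (1008 and 818), Pdgfra+ nEnd replicate 2 (903 and 89), Pdgfra+ nEnd replicate 1 (367) and DP nEnd replicates 2 and 3 (86 and 85). Signal rank counts for Oct4+ and DP nEnd moved as far without any 1 DP nEnd library (1276, 1238 and 1274), and those for DP and Pdgfra+ nEnd without any 1 library (0, 1 and 0 without DP nEnd replicates 1 to 3, 56, 13 and 0 without Pdgfra+ nEnd replicates 1 to 3). Width counts moved without Oct4+ nEnd replicates 2, 3 and 4 (12, 33 and 12 against DP nEnd, and 210 against Pdgfra+ nEnd without replicate 4), Pdgfra+ nEnd replicates 1 to 3 (238, 175 and 127 against Oct4+ nEnd, 90, 10 and 17 against DP nEnd) and DP nEnd replicates 1 and 2 (12 and 17 against Pdgfra+ nEnd).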
